A study of Mus musculus with 10 samples.

Results

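Transit amplifying (TA) cells are the rapidly dividing daughters of intestinal stem cells. The cells described here were those to which the authors' annotation gave the class TA in 8 droplet single-cell RNA-sequencing libraries of mouse small-intestinal organoids. They numbered 10117 of 22139 kept organoid cells, and the series as a whole held 25204 kept cells in 10 libraries. Organoids had been grown from proximal small-intestinal crypts. The 3 libraries of ENR-organoids came from cultures with EGF, Noggin and R-Spondin 1. The 3 libraries of Hyper-organoids came from cultures with EGF, FGF2, conditioned medium of R-Spondin 1, LDN193189, which inhibits BMP receptors, GSK-3 Inhibitor XV, Pexmetinib, the histone deacetylase inhibitor VPA and the EZH2 inhibitor EPZ6438. -VE-organoids (2 libraries) received the Hyper medium without VPA and EPZ6438. EGF and a source of R-Spondin 1 were thus common to all 3 media, and BMP signalling was inhibited in all 3, by Noggin in ENR and by LDN193189 in the others. Culture series 2 (ENR passage 2, -VE passage 1, Hyper passage 1) and series 6 (passages 7, 6 and 6) each gave replicates 1 and 2 of the 3 groups, and their -VE- and Hyper-organoids had been derived from ENR-organoids. Series C gave replicate 3 of the ENR- and Hyper-organoids, both at passage 3 and grown from primary crypts. The methods name C57BL/6 and Lgr5 reporter mice, and which animals gave which library is not stated in the sources used here, so p-values below measure only the spread between these libraries.

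In the crypt, stem cells at the base renew themselves under Wnt and Notch signals, and their daughters divide several times as TA cells while they move upward and choose between the absorptive fate of enterocytes and the secretory fates of goblet, Paneth and enteroendocrine cells. Dividing cells copy their DNA in S phase with the help of factors such as PCNA, the sliding clamp of DNA polymerases. In G2 and M phase they make the genes of mitosis, among them Top2a, a topoisomerase that untangles chromosomes, Mki67, which coats mitotic chromosomes, and Ube2c, an enzyme that starts the destruction of cyclins.

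The class stood above stem cells in genes of mitosis in each library. The summed S phase genes stood above those of stem cells in the 3 Hyper libraries and below them in the 5 others. In CPM (a gene's share of all UMIs of a class's summed cells, not scaled further), Mki67 ran from 199 to 274 in TA cells over the 8 libraries, with a median of 226, against 39.6 to 65.7 in stem cells and at most 27.4 in enterocytes. Top2a ran from 204 to 274 in TA cells and from 21.7 to 70.9 in stem cells. Ube2c ran from 601 to 716 in TA cells and from 44.7 to 102 in stem cells. The log2 ratio of TA to stem cells within a library was positive in 8 of 8 libraries for Mki67 (1.83 to 2.43), Top2a (1.88 to 3.42), Ube2c (2.63 to 3.75), the chromatin protein gene Hmgb2 (0.97 to 1.47) and the tubulin gene Tubb5 (0.65 to 1.19). Pcna, although a usual marker of dividing cells, did not mark the class. It ran from 66.2 to 108 CPM in TA cells and from 85.9 to 120 CPM in stem cells, and was higher in TA cells in 3 of 8 libraries. These values describe the classes and carry no test, because the authors drew the classes from the same genes. Mki67 was also high in enterocyte progenitors (138 to 437 CPM) and goblet cells (111 to 181 CPM), so the TA class did not hold all dividing cells.

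**Figure D1:**
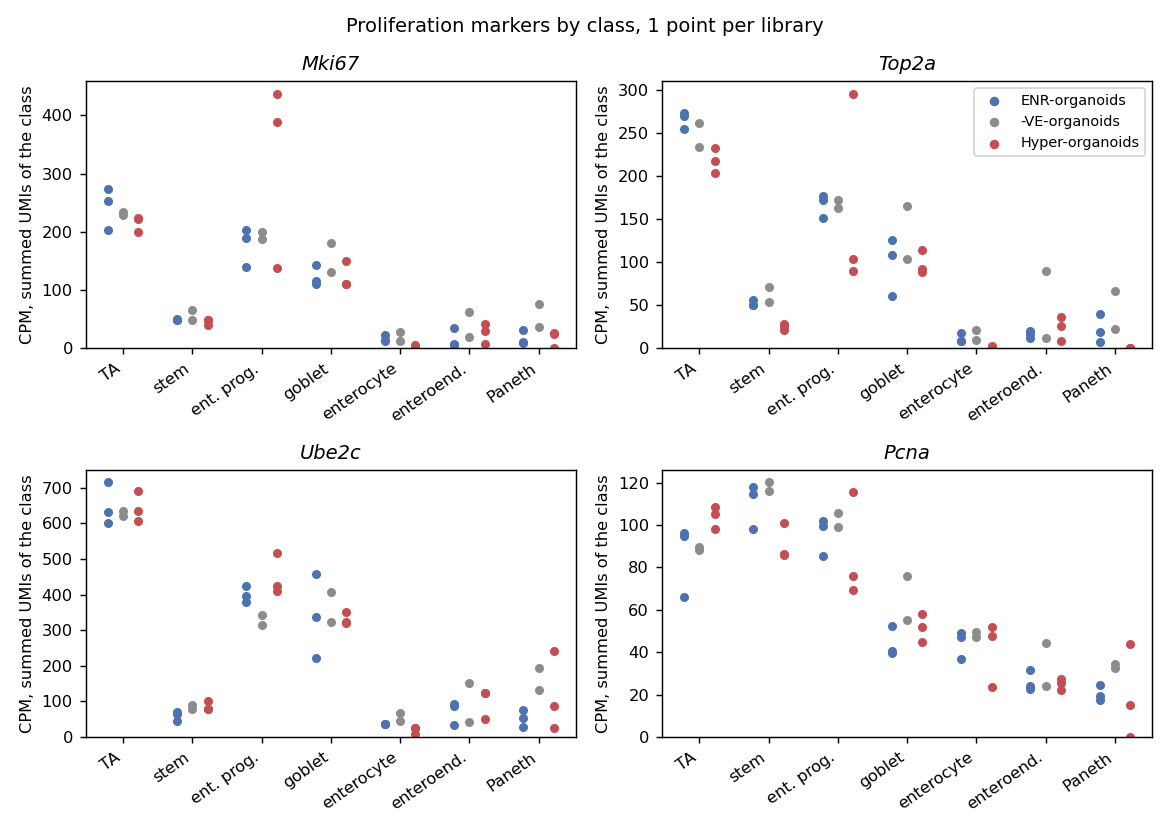
CPM of Mki67, Top2a, Ube2c and Pcna (y axes) in 7 classes (x axes), with 1 point per library coloured by medium and classes ordered with TA cells first. Mki67, Top2a and Ube2c in TA cells lie above those in stem cells in 8 of 8 libraries, and Pcna does so in 3; the Hyper-organoid enterocyte progenitor and Paneth sums rest on few cells.

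Markers of stem cells were also found in TA cells. The log2 ratio of TA to stem cells ran from -0.53 to 0.03 for Lgr5, a Wnt target that marks crypt stem cells, from -0.37 to 0.02 for the stem cell transcription factor gene Ascl2, and from -0.87 to 0.20 for the secreted stem cell marker Olfm4, and all 3 genes were lower in TA than in stem cells in each ENR library. Markers of finished lineages differed in how far TA cells held them. Muc2, the goblet mucin, reached 1.04 CPM in TA cells and 106 to 1186 CPM in goblet cells, and Apoa1, an enterocyte lipoprotein gene, reached 11.3 CPM against 114 to 2036 CPM in enterocytes. Fabp1, an enterocyte fatty acid binding protein gene, was at 54.0 to 82.6 CPM in TA cells of ENR-organoids, above the 29.3 to 42.3 CPM of stem cells, and at 10370 to 11214 CPM in enterocytes. Dmbt1, a marker of enterocyte progenitors, was at 343 to 443 CPM in TA cells and 163 to 274 CPM in stem cells there, and Lyz1, lysozyme of Paneth cells, at 57.3 to 59.9 and 68.8 to 80.2 CPM. Of the markers of non-epithelial cells, the pan-leukocyte gene Ptprc was at 0 in TA cells of 8 libraries and Col3a1, a fibroblast collagen, was at most 0.0127 CPM. Other genes found in such cells, among them Vim, Coro1a and Itgam, did have UMIs in TA cells and are given below.

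The promoters of the G2/M genes are shown because these genes set the class apart. A known feature of such promoters is the CHR element, written TTTGAA, with CCAAT boxes nearby. Windows of 250 bases before the RefSeq start (GRCm38.p6) were searched for each of these runs on either strand. TTTGAA was found in 40.4% of 52 windows of the G2/M list, 16.2% of 37 windows of the S phase list and 15.99% of 32851 windows of all genes. With 50 bases after the start added to the window, these shares were 65.4%, 16.2% and 17.9%, so that of the G2/M list depends on the window. CCAAT was found in 75.0%, 70.3% and 33.8% of the shorter windows. The searched runs do not overlap in their letters, and a match is a description of the sequence, not a tested site. The window of Top2a (chr11:99024190-99024439, minus strand, outside the transcript) held 2 runs of TTTGAA, at 179 and 23 bases before the start, and 6 of CCAAT. The window of Mki67 (chr7:135716380-135716629, minus strand) held 2, at 116 and 98 bases before the start, and 3 of CCAAT, and that of Pcna held 0 and 1. Both windows are printed 5′ to 3′ in the direction of transcription, with every match in capitals.
Top2a: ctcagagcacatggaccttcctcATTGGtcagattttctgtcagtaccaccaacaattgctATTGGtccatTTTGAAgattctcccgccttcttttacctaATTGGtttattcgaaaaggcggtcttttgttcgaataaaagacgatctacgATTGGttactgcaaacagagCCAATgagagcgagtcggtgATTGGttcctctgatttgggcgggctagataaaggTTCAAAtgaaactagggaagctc
Mki67: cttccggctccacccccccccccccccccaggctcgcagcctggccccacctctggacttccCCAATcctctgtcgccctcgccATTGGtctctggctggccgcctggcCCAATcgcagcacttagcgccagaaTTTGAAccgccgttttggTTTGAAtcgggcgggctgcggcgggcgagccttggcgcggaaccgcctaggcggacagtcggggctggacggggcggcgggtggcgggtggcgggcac

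TA cells were the deepest cells of most libraries. Their median UMI count ran from 45149 to 59670 and was the highest of 7 classes in 6 of 8 libraries. It was 1.34 to 1.44 times that of stem cells. All TA cells together held 508993267 UMIs, 33173260 to 101871993 per library. Of the TA cells, 563 (5.56%) had under 10000 UMIs and 318 had under the 1500 genes that the methods state as a minimum. Only 17 barcodes of TA cells were found in more than 1 library, at most 2 in any of the 28 pairs of libraries. Hyper replicate 1 stood apart from the other Hyper libraries in several genes below, and the count of called genes between Hyper- and ENR-organoids was 2858 without it and 3047 with it.

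The first question was whether the medium changed how many cells were TA cells. Of the kept cells in the 3 ENR libraries, TA cells made up 43.6%, 39.8% and 32.9%. They made up 49.1% and 53.1% in the 2 -VE libraries, and 50.0%, 46.9% and 42.4% in the 3 Hyper libraries. The exact 95% binomial interval of a single library, which covers counting error only, was 31.0 to 34.9% for the lowest and 51.6 to 54.6% for the highest. ENR replicate 1 lay within the Hyper range, but within each of the 3 culture series, which pair these libraries, the Hyper share was above the ENR share, by a mean of 7.65 points ± 1.63 (SD over the 3 series). The Hyper mean (46.4% ± 3.8, SD, n = 3) was 7.65 points above the ENR mean (38.8% ± 5.4, n = 3; exact two-sided permutation p = 0.2). The -VE mean (51.1% ± 2.8, n = 2) was 12.3 points above ENR (exact permutation p = 0.2), and Hyper was 4.66 points below -VE (exact permutation p = 0.4). Single libraries moved these gaps: Hyper was 4.71 points above ENR without ENR replicate 3, and 2.68 and 2.64 points below -VE without -VE replicate 2 and without Hyper replicate 3. In series 2 the Hyper share lay above that of -VE, and the mean within-series difference was 2.64 points below. A design of 3 against 3 libraries cannot go below 0.1 and 3 against 2 cannot go below 0.2, and adjusted over 9 classes the Hyper-ENR value was 0.225. Around the TA cells, stem cells averaged 12.2%, 26.2% and 42.1% in ENR-, -VE- and Hyper-organoids, enterocyte progenitors 27.02%, 4.34% and 0.098%, and enterocytes 11.8%, 5.96% and 0.985%.

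The share of dividing cells that were TA cells did not overlap between the media. Cells were thinned to 10000 UMIs each, shallower cells being left out, and cells with at least 1 UMI of Mki67 and of Top2a were counted. Such cells were 65.7 to 79.9% of TA cells and 5.89 to 18.3% of stem cells. Of TA cells they were 69.1 to 79.9% in the ENR, 72.3 and 76.9% in the -VE and 65.7 to 67.01% in the Hyper libraries. Of stem cells they were 8.77 to 12.4%, 13.7 and 18.3%, and 5.89 to 7.88% in the same order. Such cells were thus a smaller part of both classes in each Hyper library than in each ENR and -VE library, which was not tested. In classes of differentiated cells, which serve as a measure of background, they were 0 to 5.80% of enterocytes, 0 to 8.33% of enteroendocrine cells and 0 to 17.0% of Paneth cells, the last from 47 cells in -VE replicate 2. Goblet cells, in which Mki67 was also high, had 16.8 to 41.5%, a range that reaches above that of stem cells. Enterocyte progenitors had 41.1 to 55.5% in the ENR and 46.1 to 53.8% in the -VE libraries, while the Hyper libraries held only 3, 3 and 2 enterocyte progenitors. Without thinning the ranges were 90.1 to 95.8% in TA cells, 24.3 to 48.1% in stem cells and 0 to 10.7% in enterocytes. In TA cells the Hyper libraries then overlapped the ENR libraries, at 90.5 to 95.8% and 90.1 to 95.7%. In stem cells they also overlapped, at 24.3 to 33.8% and 33.2 to 42.2%. Medians were 45149 to 59670 UMIs in TA cells and 30104 to 57295 in enterocytes. Of all cells with both genes, TA cells were 68.6%, 64.5% and 56.7% in the ENR libraries, 80.1% and 78.7% in the -VE libraries and 88.1%, 87.6% and 86.0% in the Hyper libraries. The 3 groups lay apart. The Hyper mean was 23.9 points above ENR (exact permutation p = 0.1, the smallest possible) and 7.81 points above -VE (exact permutation p = 0.2, the smallest possible). Enterocyte progenitors took up most of the remainder in ENR-organoids, with 30.1% ± 6.0 of the cells with both genes (SD, n = 3), against 4.63% in -VE- and 0.17% in Hyper-organoids. Top2a is among the authors' markers of the TA class. The share thus depends on where they set the border between TA cells and enterocyte progenitors in each medium. The part of that border was not tested, and the p-values cannot test it. When all cells holding both genes were counted in place of the TA class, their share of the cells of at least 10000 UMIs was 10.7 points lower in Hyper- than in ENR-organoids (exact permutation p = 0.1) and 12.9 points lower than in -VE-organoids (exact permutation p = 0.2), while it was 2.199 points higher in -VE than in ENR (exact permutation p = 0.8). The TA class, among the same cells of at least 10000 UMIs, was 8.00 points higher in Hyper than in ENR, so the directions were opposite on the same base.

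**Figure D2:**
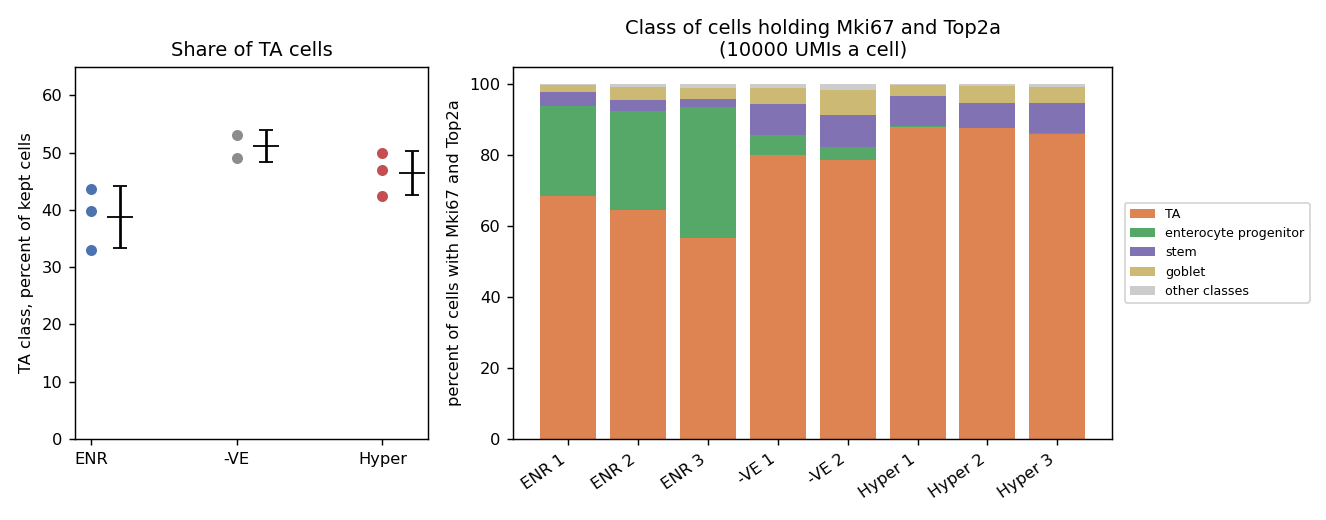
Left, TA cells as a percent of kept cells per library by medium, with points for libraries and bars for the mean and SD. Right, classes of the cells with Mki67 and Top2a at 10000 UMIs a cell, as a percent of such cells per library; TA cells are 56.7 to 68.6% in ENR- and 86.0 to 88.1% in Hyper-organoids, where the enterocyte progenitor part is under 1%.

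Within TA cells, the summed level of the S phase list was higher and that of the G2/M list lower in each Hyper library than in each ENR library. This holds for the sums, not for each gene. Summed over the 45 genes of the S phase list, the level was 30.4, 30.5 and 24.9 UMIs per 10000 in ENR-, 28.7 and 29.1 in -VE- and 32.2, 34.4 and 31.1 in Hyper-organoids. Each Hyper library lay above each of the others. The difference from ENR was 3.98 (exact permutation p = 0.1) and from -VE 3.68 (exact permutation p = 0.2), the smallest p-values these designs allow. Without ENR replicate 3, the lowest library, the difference from ENR fell to 2.12. Over the 54 genes of the G2/M list the level was 97.8, 97.7 and 95.4 in ENR-, 95.3 and 93.5 in -VE- and 93.7, 89.9 and 91.1 in Hyper-organoids. Hyper was 5.43 lower than ENR, with no overlap (exact permutation p = 0.1), and 2.87 lower than -VE (exact permutation p = 0.4). Hyper-organoid TA cells were also more spread: the 10th percentile of cells was 45 to 47 in the Hyper libraries and 61 to 63 in the ENR libraries, while the 90th was 129.8 to 135 and 124 to 132. TA cells of the -VE-organoids differed from ENR by 0.29 in S phase (exact permutation p = 1) and -2.56 in G2/M (exact permutation p = 0.2). The G2/M difference was -1.66 without -VE replicate 2. Within each series that held both, the S phase level of -VE lay below that of ENR, at 28.7 against 30.4 and at 29.1 against 30.5. The sign of the S phase difference thus depends on the pairing.

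Gene by gene, the 3 media were compared on UMIs summed over the TA cells of a library with edgeR's quasi-likelihood test and Benjamini-Hochberg adjustment over 14553 genes. A gene was called at an adjusted p under 0.05 and at least a 2-fold change, and levels below are CPM on the TMM scale of edgeR. Between Hyper- and ENR-organoids 3047 genes (20.9%) were called, 2497 higher (17.2%) and 550 lower (3.78%) in Hyper. Between Hyper and -VE 2596 (17.8%) were called, 2259 higher (15.5%) and 337 lower (2.32%). Between -VE and ENR 150 (1.03%) were called, 101 higher (0.694%) and 49 lower (0.337%). Comparisons with a common group share its libraries. The classes were named over clusters, and the authors describe the TA and stem cells of Hyper- and ENR-organoids as lying in separate clusters. The cluster numbers were not used here, so a class can stand for different clusters in each medium, whose part in these differences was not tested. The median log2 fold change over all genes lay between -0.01 and 0.01 in these comparisons.

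Few genes of the core cell cycle passed the test. Of the 45 S phase genes 0 were called in any of the 3 comparisons by edgeR; at adjusted p under 0.05 and any fold, 10 were higher and 4 lower in Hyper than in ENR, against 29.2% and 26.6% of all genes, and the list's median log2 fold change was 0.06. Of the 54 G2/M genes 2 were called higher and 0 lower in Hyper than in ENR. Of all genes 17.2% were called higher and 3.78% lower there, shares against which the called counts of the S phase and Myc lists also stand. At adjusted p under 0.05 and any fold, 6 G2/M genes were higher and 21 lower, and the median was -0.17. Mki67 (chromosome 7) was at 276, 258 and 215 CPM in ENR-, 238 and 240 in -VE- and 211, 212 and 192 in Hyper-organoids, a log2 difference between Hyper and ENR of -0.28 ± 0.09 (SE) that was under 2-fold (edgeR adjusted p = 0.023). Top2a was at 276, 274 and 269 in ENR-, 243 and 269 in -VE- and 193, 206 and 225 CPM in Hyper-organoids, a log2 difference of -0.39 ± 0.07 that was under 2-fold (edgeR adjusted p = 0.0011). Its Hyper and ENR libraries did not overlap, as those of 62.8% of all genes did not. Pcna was at 96.9, 96.4 and 70.0, then 93.3 and 90.3, and 102.5, 99.7 and 94.5 CPM (log2 difference 0.17, edgeR adjusted p = 0.23), with ENR replicate 3 low. Cdk1, the kinase that starts mitosis, was at 210.3 to 245 CPM in ENR- and 231 to 262 in Hyper-organoids (edgeR adjusted p = 0.27). The called pair were Pimreg, a mitotic protein (log2 1.94 ± 0.21), and Psrc1, a spindle protein (1.17 ± 0.11). Among the 24 genes of the Myc and ribosome biogenesis list 0 were called by edgeR. At any fold 1 was higher and 15 lower in Hyper than in ENR, with a median of -0.27. Against -VE 18 were lower and 0 higher, where 21.9% and 25.4% of all genes were.

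Some inhibitors of cyclin-dependent kinases, which slow the cycle, were higher in the Hyper-organoid TA cells, and others were not. Cdkn1c (p57), an imprinted inhibitor on chromosome 7, was at 4.47, 5.03 and 5.23 CPM in ENR-, 4.03 and 4.36 in -VE- and 19.9, 19.6 and 19.6 in Hyper-organoids. This was a log2 rise of 2.01 ± 0.08 over ENR (edgeR adjusted p = 8.9e-07) and 2.23 ± 0.10 over -VE. Cdkn2a, which encodes p16 and p19Arf on chromosome 4 and is a known target of polycomb, was at 0.108, 0.109 and 0.191 CPM in ENR-, 0.135 and 0.111 in -VE- and 12.5, 4.11 and 16.1 in Hyper-organoids. Its log2 rise was 6.37 ± 0.62 over ENR and 6.47 ± 0.69 over -VE, and the counts do not tell the p16 and p19Arf transcripts apart. Cdkn1a (p21), a p53 target, was at 25.6 to 26.9 CPM in ENR-, 30.2 and 20.1 in -VE- and 50.5 to 60.4 in Hyper-organoids (log2 1.08 ± 0.14 over ENR, 1.15 ± 0.15 over -VE). The rise over -VE fell to 0.87 without -VE replicate 2, under 2-fold. Cdkn1b (p27) went the other way, from 49.6 to 50.8 CPM in ENR- to 34.4 to 42.0 in Hyper-organoids (log2 -0.39, under 2-fold). Cdkn2b (p15) was at 8.12, 8.77 and 8.29 CPM in ENR-, 6.51 and 3.81 in -VE- and 7.31, 3.37 and 3.90 in Hyper-organoids (log2 -0.78, edgeR adjusted p = 0.052), and it was called lower, at -1.20, without Hyper replicate 1. Cyclin D1, encoded by Ccnd1, which drives entry into S phase, was at 139, 157 and 165 CPM in ENR-, 128 and 147 in -VE- and 95.7, 91.5 and 99.8 in Hyper-organoids (log2 -0.69 ± 0.08, under 2-fold). Of 31 cell cycle regulators, 3 were called higher and 0 lower in Hyper than in ENR. The share called higher was smaller than the 17.2% of all genes, of which 3.78% were called lower. The rises were not particular to TA cells. In unscaled CPM, mean Cdkn1c went from 6.36 in ENR- to 21.3 in Hyper-organoid stem cells and from 7.89 to 18.3 in goblet cells. It fell from 521 to 112 in enteroendocrine and from 4.01 to 1.26 in Paneth cells. Mean Cdkn2a went from 0.125 to 16.1 in stem cells, from 0.512 to 19.6 in goblet, from 0.259 to 28.1 in enteroendocrine cells and from 0.834 to 82.3 in enterocytes. In TA cells it went from 0.132 to 11.4 on this measure.

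**Figure D3:**
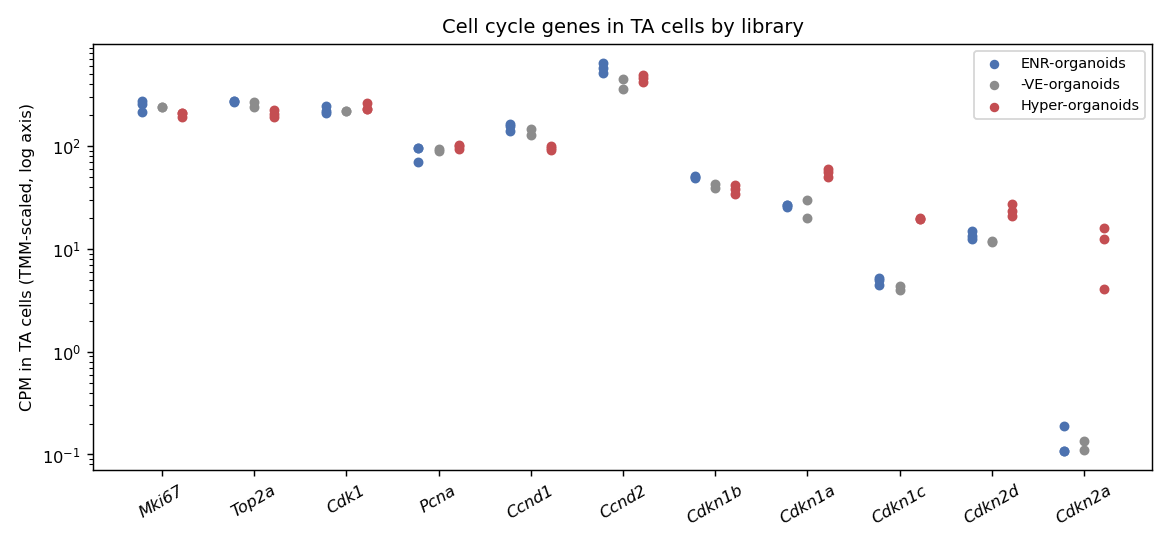
CPM (TMM scale, log axis) of 11 cell cycle genes in TA cells, 1 point per library, coloured by medium. Among the proliferation genes on the left, Mki67 and Top2a lie lower in the Hyper than in the ENR libraries by less than 2-fold and Cdk1 and Pcna overlap, while Cdkn1a, Cdkn1c, Cdkn2d and Cdkn2a on the right lie higher in the 3 Hyper libraries than in the 5 others.

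The p53 target list, to which Cdkn1a also belongs, had 7 of 18 genes called higher and 0 lower in Hyper than in ENR, with a median of 0.53, against 17.2% and 3.78% of all genes. Against -VE the counts were 7 and 0, with 15.5% and 2.32% of all genes. Phlda3, a p53 target that restrains AKT, was at 4.21 to 4.91 CPM in ENR-, 6.75 and 5.39 in -VE- and 20.8 to 25.2 in Hyper-organoids (log2 2.31 ± 0.12 over ENR). Zmat3, an RNA-binding p53 target, went from 7.10 to 7.49 CPM in ENR- to 18.6 to 22.7 in Hyper-organoids (log2 1.46 ± 0.09).

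Among the ranked genes, with separate libraries and a group mean of at least 20 CPM, the largest rises were of genes nearly silent in the ENR- and -VE-organoids. Bex4, a small X-linked gene best known from the nervous system, was at 0.0217, 0 and 0.0638 CPM in ENR-, 0.0898 and 0.101 in -VE- and 193, 281 and 256 in Hyper-organoids. These are 3 UMIs in ENR-organoids against 51189, a ratio of levels with a 95% counting interval of 3918 to 55530.1. In unscaled CPM, mean Bex4 in Hyper-organoids was 255 in TA, 240 in stem, 213 in goblet and 180 in enteroendocrine cells and 20.3 in enterocytes. Bex1, of the same family, was at 0.0545 to 0.191 CPM in ENR-, 1.05 and 1.08 in -VE- and 145, 207 and 186 in Hyper-organoids (log2 10.60 ± 0.25, edgeR adjusted p = 6.9e-08). Nrk, a kinase gene, and Arxes2 had 0 UMIs in the TA cells of ENR-organoids and were at least 1064-fold and 1014-fold higher in Hyper, against a floor of 3 counts over the group. Zfhx4, a transcription factor gene, had 1 UMI in ENR-organoids and was at 10.7, 27.97 and 30.4 CPM in Hyper-organoids. Peg3, a paternally expressed imprinted gene, went from 4 UMIs in ENR- to 15.1, 64.5 and 30.9 CPM in Hyper-organoids.

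Imprinted genes are silenced on the maternal or the paternal copy, and Hox genes, which set position along the body, are classic targets of polycomb. Of 14 imprinted genes tested, out of 21 listed, 10 were called higher and 0 lower in Hyper than in ENR (17.2% and 3.78% of all genes were). The median log2 was 4.38, or 3.51 with the 3 genes of 0 UMIs in a group at their bound. Besides Cdkn1c and Peg3, Plagl1, which encodes a zinc finger protein that restrains growth, was at 0.708 to 1.04 CPM in ENR-, 1.02 and 1.32 in -VE- and 8.80, 12.1 and 9.92 in Hyper-organoids. Peg10, a gene of retrotransposon origin, was at no more than 0.0545 CPM in ENR- and at 1.12 to 2.35 in Hyper-organoids. Of 17 Hox genes tested, out of 39 listed, 11 were called higher and 0 lower, against the same shares of all genes, with a median of 2.71. Hoxa5 was at 0.760, 0.472 and 0.957 CPM in ENR-, 1.09 and 0.977 in -VE- and 3.45, 11.5 and 7.50 in Hyper-organoids (log2 3.39 ± 0.46). Between -VE and ENR both lists had 0 genes called by edgeR, where 0.694% of all genes were called higher and 0.337% lower. The expression filter was applied over all 8 libraries. Genes of these lists that were nearly silent in ENR- and -VE-organoids passed it through the Hyper libraries. For such genes a call lower in Hyper, or a call between -VE and ENR, was hardly possible. The counts of both lists are therefore descriptions and carry no support. Of 13 genes of PRC2 and the H3K27 demethylases 1 was called higher and 0 lower in Hyper than in ENR, and of 10 histone deacetylases 1 and 0, so that neither list had a larger share called higher than the 17.2% of all genes. Ezh2, the H3K27 methyltransferase that EPZ6438 inhibits, was at 138 to 142 CPM in ENR- and 123 to 129 in Hyper-organoids (log2 -0.14), and Hdac1, a target of VPA, was at 69.0 to 71.7 CPM in ENR- and 106 in each Hyper library (log2 0.60 ± 0.04, under 2-fold).

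Wnt targets and stem cell genes were mixed. Of 25, 9 were called higher and 1 lower in Hyper than in ENR, with a median of 0.49. Of all genes 17.2% and 3.78% were, so the share called lower is near that of all genes. Lgr5 was at 79.4, 78.4 and 71.0 CPM in ENR-, 103 and 80.2 in -VE- and 152, 151 and 119.8 in Hyper-organoids (log2 0.88 ± 0.12 over ENR, edgeR adjusted p = 0.0003, under 2-fold). Smoc2, a secreted stem cell marker, went from 211 to 219 CPM in ENR- to 431 to 488 in Hyper-organoids (log2 1.07 ± 0.06). Lef1, a transcription factor of the Wnt pathway, went from 5 UMIs in ENR- to 3.105 to 5.43 CPM in Hyper-organoids. Sp5, a direct Wnt target, was at 10.6 to 13.4 CPM in ENR-, 20.8 and 20.5 in -VE- and 34.2 to 45.5 in Hyper-organoids (log2 1.67 ± 0.13). Tnfrsf19, a Wnt target, was at 0.287 to 0.391, 2.44 and 3.57, and 13.1 to 29.0 CPM.

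Olfm4 was called lower in Hyper than in ENR, and its Hyper libraries differed among themselves. It was at 2399, 2529 and 1725 CPM in ENR-, 2163 and 1426 in -VE- and 627, 22.01 and 40.4 in Hyper-organoids. The log2 fall from ENR to Hyper was -3.27 ± 1.10 (edgeR adjusted p = 0.032), and this call was lost without any single ENR library or without Hyper replicate 3 (adjusted p between 0.050 and 0.0685), while DESeq2 gave no adjusted p. Without Hyper replicate 1, the library at 627 CPM, the fall was -6.14. Ascl2 was at 39.1 to 44.7 CPM in ENR- and 22.9 to 36.2 in Hyper-organoids (log2 -0.62, under 2-fold).

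Of 26 genes of the Notch pathway and of fate choice, 7 were called higher and 1 lower in Hyper than in ENR, with a median of 0.37. Of all genes, 17.2% and 3.78% were called, so the share called lower is near that of all genes. Notch3, a receptor, was at 0.182 to 0.383 CPM in ENR-, 0.404 and 0.443 in -VE- and 1.73 to 2.35 in Hyper-organoids (log2 2.92 ± 0.29). Mfng, an enzyme that modifies Notch receptors, went from 0.109 to 0.282 CPM to 1.55 to 2.27 (log2 3.20 ± 0.41). Hes1, the main Notch effector of absorptive cells, was at 146, 127 and 153 CPM in ENR-, 124 and 114 in -VE- and 166, 179 and 223 in Hyper-organoids (log2 0.41, under 2-fold), and Atoh1, the switch to the secretory fate, stayed at or under 1.24 CPM in each library.

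A part of the enterocyte genes fell in Hyper-organoid TA cells. Of 28 tested, 11 were called lower and 2 higher than in ENR (median -0.92), against 3.78% and 17.2% of all genes, and 4 of 4 enterocyte progenitor markers were called lower. Cfhr2, a complement factor H-related gene that marks enterocyte progenitors, was at 8.595, 14.8 and 14.9 CPM in ENR-, 3.70 and 1.61 in -VE- and 0.0240, 0.0121 and 0 in Hyper-organoids, or 1678 UMIs in ENR against 3 in Hyper (95% counting interval of the ratio 285 to 4045). Sis, the brush-border sucrase-isomaltase, went from 7.94 to 12.4 CPM in ENR- through 2.92 and 2.01 in -VE- to 0.144 to 0.423 in Hyper-organoids (log2 -5.42 ± 0.39 from ENR). Beyond the list, Aoc1, a diamine oxidase, fell from 37.6, 34.7 and 34.6 CPM in ENR- to 10.9 and 7.41 in -VE- and 1.08, 1.015 and 0.776 in Hyper-organoids (log2 -5.19 ± 0.18 from ENR). Clca4b, a gene of the chloride channel accessory family, fell from 67.5 to 85.7 CPM to 3.54 to 4.60 (log2 -4.22 ± 0.13), with 57.3 and 48.2 in -VE-organoids.

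These falls moved with the cells around the TA cells, whose part in them was not tested. Paneth cells, which do not make brush-border enzymes, held 0 to 23.5 CPM of Sis in ENR-organoids (mean 13.7), a range that takes in the 7.51 to 12.2 CPM of the TA cells there on the same unscaled measure, and enterocytes fell from 11.8% to 0.985% of cells. Summed over the enterocyte list, TA cells held 1185 to 1286 CPM in ENR- and 765 to 899 CPM in Hyper-organoids, and Paneth cells 698 to 953 and 695 to 822 CPM, the latter from only 10, 2 and 2 cells. Goblet cells held 18.1 to 49.2 CPM of Sis. For Cfhr2 the TA cells of ENR-organoids held 8.53 to 14.535 CPM, Paneth cells 1.47 to 2.75, goblet cells 4.95 to 9.40 and enteroendocrine cells 1.55 to 11.3, of which the goblet and enteroendocrine ranges overlap that of TA cells. For Clca4b the TA cells held 63.8 to 84.2 CPM, above the 1.55 to 37.0 of these other classes. Stem cells of ENR-organoids held more of it, at 100 to 141 CPM, and enterocyte progenitors less, at 37.5 to 52.5. In stem cells of Hyper-organoids it was at 3.76 to 4.60 CPM. Of the Paneth genes, 5 of 9 were called lower and 1 higher in Hyper than in ENR, against 3.78% and 17.2% of all genes. Lyz1 went from 58.3 to 60.9 CPM to 6.56 to 25.9 in TA cells (log2 -2.10 ± 0.43), while enterocytes held 25.3 to 55.02 CPM of it in ENR-organoids and Paneth cells averaged 1.77% of ENR and 0.171% of Hyper cells.

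Of the secretory lists, goblet genes had 1 gene called higher and 4 lower of 9, and enteroendocrine genes had 5 called higher and 2 lower of 12, in Hyper against ENR, where 17.2% and 3.78% of all genes were called. The summed goblet list nevertheless ran from 243 to 263 CPM in ENR- and 169 to 412 in Hyper-organoid TA cells, which overlap. Neurog3, the switch to the enteroendocrine fate, was at 0.159 to 0.326 CPM in ENR- and 0.431 to 0.942 in Hyper-organoids (log2 1.44 ± 0.41, edgeR adjusted p = 0.016, and 0.054 without Hyper replicate 2). Vim, an intermediate filament of mesenchymal cells that dedifferentiating epithelium can also make, was at 0.127 to 0.391 CPM in ENR- and 74.2, 20.1 and 8.02 in Hyper-organoid TA cells (log2 7.18 ± 1.08). The summed stromal list, of which Vim was most in Hyper-organoids, ran from 0.321 to 0.883 CPM in ENR- and 9.12 to 79.7 in Hyper-organoids, and 0 of its 10 genes lacked UMIs in TA cells. The collagen gene Col1a1 was at most 0.432 CPM. Of 3 stromal genes tested, Vim and Col1a1 (log2 3.30 ± 0.68) were called higher in Hyper than in ENR. The immune list of 10 genes summed to 4.39 to 6.48 CPM in the 8 libraries, with 2 genes at 0 UMIs. Of 4 immune genes tested, Coro1a was called higher (log2 4.78, 144 UMIs in Hyper against 3 in ENR). Itgam was called lower (log2 -1.98, 41 against 97 UMIs). The dissociation stress list summed to 2417 to 2647 CPM in ENR- and 2548 to 3061 in Hyper-organoids, and 3 of its 16 genes were called higher, a share near the 17.2% of all genes.

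Some of the genes known from regeneration rose in the Hyper-organoid TA cells and others were not called. Of 18 revival stem cell and fetal genes, 10 were called higher, 0 lower and 8 were not called against ENR, with a median of 1.84, where 17.2% of all genes were called higher and 3.78% lower. Clu, the marker of revival stem cells, was at 2.63, 0.418 and 0.287 CPM in ENR-, 4.41 and 4.27 in -VE- and 4.37, 33.7 and 24.7 in Hyper-organoids, so that Hyper replicate 1 lay between the 2 -VE libraries. Ly6a (Sca1), a surface marker of repairing epithelium, was at 0.200 to 0.478, 4.25 and 7.25, and 3.55, 19.3 and 58.2 CPM. Anxa1, an annexin of the same injury program, was at 0.521, 0.0727 and 0.414 CPM in ENR-, 1.44 and 2.44 in -VE- and 7.92, 13.1 and 18.6 in Hyper-organoids (log2 5.37 ± 0.55 over ENR, 2.75 ± 0.50 over -VE). Gja1 (connexin 43) was at no more than 0.0868 CPM in ENR-, 0.0907 in -VE- and at 15.4 to 28.2 in Hyper-organoids. Of 26 targets of YAP/TAZ, the mechanosensitive coactivators of regeneration, 15 were called higher and 0 lower, against the same shares of all genes, with a median of 1.36. Amotl1, a YAP-binding angiomotin, was at 0.0319 to 0.0908, 0.374 and 0.302, and 13.3 to 21.9 CPM. Some members of the revival and YAP/TAZ lists were nearly silent in ENR-organoids, such as Gja1, Basp1 and Amotl1 with 8, 2 and 8 UMIs. For such genes a call lower in Hyper was hardly possible. The counts of the revival and YAP/TAZ lists are therefore descriptions and carry no support. Reg3b, an antimicrobial lectin of the inflamed gut, was at 0.191 to 1.07 CPM in ENR-, 0.434 and 0.131 in -VE- and 155, 345 and 602 in Hyper-organoids (log2 9.09 ± 0.69). Of the regenerative signature, a list that the study itself drew up from data on injured intestine, 20 of 60 up-genes were called higher, 4 lower and 36 were not called, and of 53 down-genes 3 were called higher and 20 lower. Set against 17.2% and 3.78% of all genes, the 4 up-genes called lower are not below the share of all genes.

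Of 11 BMP targets 4 were called higher and 2 lower in Hyper than in ENR (17.2% and 3.78% of all genes were), and 1 and 2 in -VE than in ENR (0.694% and 0.337%). Id1 and Id3, the most direct BMP targets, were called lower than in ENR in both media with LDN193189. Id1 was at 66.3, 81.4 and 71.5 CPM in ENR-, 20.8 and 23.1 in -VE- and 12.1, 22.1 and 19.9 in Hyper-organoids, and its call for -VE was lost without -VE replicate 1 (log2 -1.66, edgeR adjusted p = 0.052) or -VE replicate 2 (-1.80, adjusted p = 0.079). Id3 was at 42.5 to 56.5, 7.78 and 8.80, and 14.6 to 19.1 CPM, which put Hyper above -VE (log2 1.06 ± 0.15). That call fell just under 2-fold without -VE replicate 1 (0.97) or Hyper replicate 2 (0.98). In contrast Bambi, a decoy receptor induced by BMP and Wnt, rose from 2.78 to 3.22 CPM to 7.87 and 10.9 and to 16.1 to 19.3, and Msx1 was at 0.304 to 0.446 CPM in ENR- and 3.51 to 4.97 in Hyper-organoids. Of 15 feedback genes of ERK signalling, which EGF and FGF2 activate, 1 was called higher and 0 lower in Hyper than in ENR, a smaller share than the 17.2% of all genes called higher. At adjusted p under 0.05 and any fold 10 were higher, against 29.2% of all genes, and the list's median was 0.57.

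**Figure D4:**
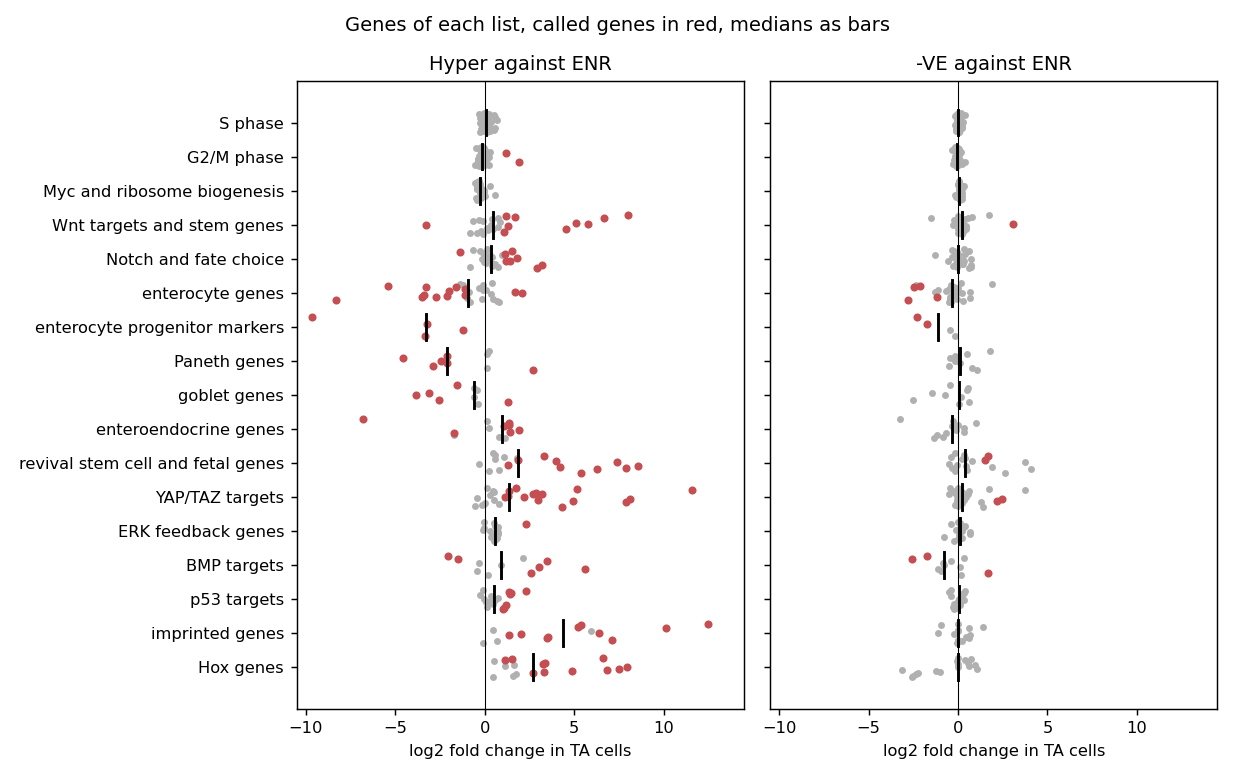
Fitted log2 fold changes in TA cells (x axes) of the genes of 17 lists (rows) for Hyper against ENR (left) and -VE against ENR (right), with called genes in red, the others in grey and list medians as bars. The medians of the S phase, G2/M and Myc lists lie near 0 in both panels (0.06, -0.17 and -0.27 on the left), while Pimreg (1.94) and Psrc1 (1.17) of the G2/M list were called higher on the left. Imprinted, Hox, revival and YAP/TAZ genes spread to the right in the left panel. Of these, 10, 11, 10 and 15 were called higher, against 0, 0, 2 and 2 in the right panel (17.2% and 0.694% of all genes). Genes nearly silent in ENR and -VE passed the expression filter through the Hyper libraries. Values for genes with 0 UMIs in a group are fits, not bounds.

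The Hyper and -VE media differ by VPA together with EPZ6438. Hyper replicate 3 came from series C, grown from primary crypts, which had no -VE library. The groups therefore also differ in series and origin. Among the ranked genes, with separate libraries and a group mean of at least 20 CPM, the largest rises were those of Zfhx4, Bex4, Reg3b, Peg3, Nrk and Itm2a. Itm2a, a membrane protein gene, was at 0.0898 and 0.0201 CPM in -VE- and 24.6, 23.6 and 18.3 in Hyper-organoids (log2 8.78 ± 0.38). Of all genes 15.5% were called higher and 2.32% lower in Hyper than in -VE. The imprinted list had 9 of 14 genes called higher and 0 lower, with a median of 3.45, and Hox genes had 11 of 17 and 0 with a median of 4.10 (3.001 and 3.39 with genes of 0 UMIs at their bound). The limit of the expression filter given above holds for both lists here as well. YAP/TAZ targets had 13 of 26 called higher and 0 lower, and revival genes 6 of 18 and 0. For members of these lists that were nearly silent in -VE-organoids a call lower in Hyper was hardly possible, so these counts are descriptions too. Clu and Ly6a were not called, with log2 differences of 2.27 (edgeR adjusted p = 0.061) and 2.21 (adjusted p = 0.075). Without Hyper replicate 1 they were called at 2.75 and 2.73. Both were also called with no filter on low counts (edgeR adjusted p = 0.022 and 0.030). Clu was called with cells thinned to 10000 UMIs (0.019), without the 5% of cells with the most UMIs (0.048) and without ENR replicate 1 (0.040). Falls included Alpi, intestinal alkaline phosphatase, at 7.35 and 34.5 CPM in -VE- and 0.744 to 3.01 in Hyper-organoids, and Gsta3, a glutathione transferase, at 153 and 187 against 9.25 to 32.5.

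TA cells of -VE-organoids differed from those of ENR-organoids in far fewer genes. Igfbp4, which binds insulin-like growth factors, rose from 56.7, 46.4 and 37.0 CPM in ENR- to 140.2 and 201 in -VE-organoids (log2 1.87 ± 0.20, edgeR adjusted p = 0.0041) and was at 259 to 334 in Hyper-organoids. Egln3, an oxygen-sensing prolyl hydroxylase, rose from 25.4 to 26.2 CPM to 56.7 and 59.8 (log2 1.18 ± 0.09), with 49.0 to 61.6 in Hyper-organoids. Anxa5 rose from 4.05 to 5.43 CPM to 11.2 and 19.2 (log2 1.65 ± 0.22), and Sulf2, which edits heparan sulphate, from 3.03 to 4.36 CPM to 12.6 and 18.5 (log2 2.01 ± 0.19). Fmo5, a flavin monooxygenase, fell from 19.3, 20.7 and 20.1 CPM to 2.44 and 1.36 (log2 -3.42 ± 0.23) and was at 1.20 to 1.51 in Hyper-organoids. Sult1d1, a sulfotransferase, fell from 53.5 to 55.7 CPM to 15.1 and 13.7 (log2 -1.93 ± 0.14). Enterocyte genes had 4 of 28 called lower and 0 higher, against 0.337% and 0.694% of all genes. Of these, Sis and Slc6a19 lost their calls without ENR replicate 1 (edgeR adjusted p = 0.090 and 0.058) or ENR replicate 2 (0.089 and 0.053). Both also lost them without -VE replicate 2 (log2 -1.87 and -2.37), and Sis did so without -VE replicate 1 (-2.42). In these fits a single -VE library remained. The S phase, G2/M, p53, imprinted and Hox lists had 0 called by edgeR. At adjusted p under 0.05 and any fold they had 1, 0, 0, 0 and 0 higher and 0 lower, against 1.98% and 1.16% of all genes. For imprinted and Hox genes nearly silent in ENR- and -VE-organoids a call was hardly possible, so the counts of these lists carry no support. Of all genes tested, 2798 had an unadjusted p under 0.05. DESeq2 called 268 genes, and edgeR called 39 without -VE replicate 2.

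Whether TA cells responded to the media as stem cells did was tested as an interaction of class and medium within libraries. Of 14704 genes, 167 (1.14%) were called between Hyper and ENR, 68 (0.462%) with the higher log2 change in TA cells and 99 (0.673%) with the lower. Between Hyper and -VE 116 (0.789%) were called, 49 (0.333%) and 67 (0.456%). The direction of these counts changed with thinning, which also left out shallower cells and gave each cell the same weight. With each cell thinned to 10000 UMIs the higher part was 57.3% of 75 genes in place of 40.7% for Hyper against ENR. For Hyper against -VE it was 74.4% of 78 in place of 42.2%. The cause of this change was not tested. The authors drew the border between TA and stem cells from the same genes, and its part in these differences was not tested.

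The S phase genes differed together. At adjusted p under 0.05 and any fold, 45 of 45 had a higher log2 change in TA cells than in stem cells between Hyper and ENR (6.84% of all genes did) and 44 of 45 between Hyper and -VE (6.03% of all genes), with 3 and 6 called (0.462% and 0.333% of all genes). The median log2 difference was 0.65 and 0.68. The list's median log2 change was -0.58 and -0.61 in stem cells and 0.06 and 0.07 in TA cells. Stem cells held 33.4, 34.6 and 31.3 UMIs of the list per 10000 in ENR-, 33.4 and 35.7 in -VE- and 27.3, 25.1 and 23.04 in Hyper-organoids, and TA cells 30.4, 30.5 and 24.9, 28.7 and 29.1, and 32.2, 34.4 and 31.1. The order of the classes was thus reversed: stem cells lay above TA cells in 5 of 5 ENR and -VE libraries and below them in 3 of 3 Hyper libraries.

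Cdc45, a part of the replicative helicase, was an example, at 21.1, 21.4 and 19.1 CPM in ENR- and 21.5, 23.8 and 22.8 in Hyper-organoid TA cells, and at 19.6, 24.8 and 17.5 and then 10.5, 10.19 and 9.63 in stem cells (interaction log2 1.18 ± 0.11, edgeR adjusted p = 3.8e-07). Ung, a DNA repair enzyme of S phase, was at 11.9 to 16.1 CPM in ENR- and 20.1 to 25.1 in Hyper-organoid TA cells, and at 90.4 to 98.8 and 63.6 to 75.0 CPM in stem cells (interaction log2 1.11 ± 0.07). The G2/M list split by comparison: between Hyper and ENR 7 genes were higher and 20 lower in TA cells relative to stem cells at any fold (6.84% and 8.23% of all genes were), and between Hyper and -VE 24 and 3 (6.03% and 5.64%), which became 8 and 6 without -VE replicate 2. In the other direction, Fabp1, a fatty acid binding protein of enterocytes, was at 54.2, 81.9 and 86.5 CPM in ENR- and 17.6, 50.5 and 55.1 in Hyper-organoid TA cells, and at 29.3, 39.5 and 44.3 and then 31.6, 74.5 and 219.8 in stem cells (interaction log2 -2.14 ± 0.26). Gsta1, a glutathione transferase, was at 21.8 to 30.3 CPM in ENR- and 6.62, 37.9 and 45.6 in Hyper-organoid TA cells, and at 22.2 to 34.6 and then 26.5, 101 and 185 in stem cells (interaction log2 -1.68 ± 0.15). Areg, an EGF receptor ligand, was at 23.8 and 15.7 CPM in -VE- and 47.7, 11.3 and 16.4 in Hyper-organoid TA cells, and at 25.4 and 14.4 and then 95.3, 27.4 and 45.4 in stem cells (interaction log2 between Hyper and -VE -1.21 ± 0.15).

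**Figure D5:**
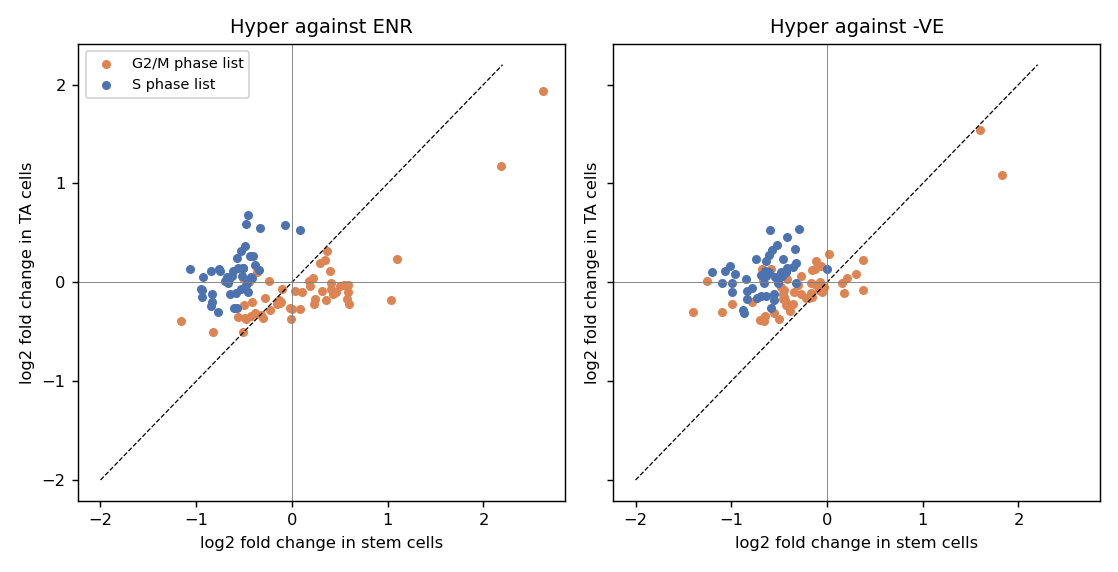
Fitted log2 fold changes in stem cells (x axis) and in TA cells (y axis) of the 45 S phase and 54 G2/M genes, for Hyper against ENR (left) and Hyper against -VE (right), with a dashed line where both are equal. The S phase genes lie above the line, near -0.6 in stem cells and near 0 in TA cells; the G2/M genes lie on both sides.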

How the data were processed

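The deposited values were UMI counts (unique molecular identifiers, 1 per captured molecule) per gene and cell, not normalized, which the authors made with Cell Ranger against mm10. The methods name version 3.0.0 and the file headers another. The authors clustered the cells with Seurat 3.1.4 and named the classes by hand from markers, and those names were used as deposited. The methods' cutoffs (a minimum of 1500 genes, a maximum of 25% mitochondrial reads) were not those of the kept cells, of which TA cells had as few as 596 genes. The kept cells were used. The series table held 23810 of 31053 genes. Every per-sample column was tied to its sample by name.

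UMIs of TA cells were summed per gene and library, since cells are not replicates, and the 8 libraries were fitted together with edgeR 4.0.16 (R 4.3.3; TMM, filterByExpr, quasi-likelihood F test), with Benjamini-Hochberg adjustment over all genes tested. The interaction fit used sums of TA and stem cells with library as a block. Shares and phase levels were compared by exact two-sided permutation tests over libraries. Phase levels used cells thinned to 10000 UMIs. Alternatives were DESeq2 1.42.0, RLE scaling, other filters, thinning, the methods' cell filter, leaving out the 5% of cells with the most UMIs (no doublet caller was run), the replicate block and leaving out each library. On simulated counts the calls were tested and most seeded changes were recovered. The seeded genes had many UMIs, changes well beyond 2-fold and a fixed spread, without differences between culture series. Genes with few UMIs and changes near 2-fold were not covered by it.

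The members and gene lists were chosen with earlier results of these data known. Named genes were, per comparison, the 6 largest called changes each way with separate libraries and a group mean of at least 20 CPM (5 each way for the interaction), leaving out unnamed gene models, pseudogenes and mitochondrial genes, up to 4 called members of lowest p per list, the markers, and usual examples of a role. A few others were chosen after their values were seen. Same-series libraries deviated together between ENR and Hyper (correlations 0.20, 0.19 and 0.49 over 14553 genes), between ENR and -VE (0.17 and 0.04) and between -VE and Hyper (0.31 and 0.18), so the culture series was taken to pair the ENR and Hyper libraries. Some libraries of different series correlated about as much (0.18 for ENR replicate 2 with Hyper replicate 1, 0.13 for ENR replicate 1 with Hyper replicate 2, and 0.20 for -VE replicate 2 with Hyper replicate 3), so series 2 and 6 are hardly set apart by these values. The pairing was not used in the main fits between media or in the permutation tests. It entered only the within-series differences and the replicate block. Gene positions are from GENCODE on GRCm38, with 149 of 149 genes matched, and promoters are from RefSeq, with 47 G2/M and 33 S phase genes matched.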

Additional observations from a re-analysis of the deposited data

Results flagged for a closer look

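The differences between TA and stem cells in the response to a medium were tested as interactions, and they are the results for which one class differed from the other. There were 167 such genes between Hyper and ENR and 116 between Hyper and -VE (edgeR quasi-likelihood test, adjusted p under 0.05 and 2-fold).

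Between Hyper and ENR, the log2 change was higher in TA than in stem cells by 1.30 for Bex2, 1.26 for Cxxc5, 1.18 for Cdc45, 1.11 for Ung and 1.06 for Fam20c. Bex2 and Cxxc5 were under 2 CPM in ENR-organoids in both classes and rose in both. Cdc45 and Ung belong to DNA replication and repair. The change was lower in TA cells by a log2 of -2.14 for Fabp1, -1.68 for Gsta1, -1.39 for Adh6a, -1.30 for Depdc1a and -1.30 for S100a6. Calls were lost in at least 1 alternative for Bex2, Cxxc5, Fam20c, Depdc1a and S100a6. Bex2 was lost without any single ENR library (adjusted p 0.0673, 0.0855 and 0.154).

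Between Hyper and -VE, the higher changes in TA cells were 1.42 for Esco2, a cohesin acetyltransferase of S phase, 1.37 for Hist1h2ae and 1.30 for Hist1h2ap, both replication histones, 1.31 for Cdc45 and 1.25 for Aurkb, a mitotic kinase. The lower ones were -1.72 for Fabp1, -1.69 for Gsta1, -1.62 for Ly6a, -1.21 for Areg and -1.16 for S100a6. Hist1h2ap, Aurkb and Ly6a lost their calls without -VE replicate 2 (0.90, 0.95 and -1.95), and S100a6 without Hyper replicate 3 (-0.86). Ly6a and S100a6 also lost theirs under DESeq2 (adjusted p 0.329 and 0.117) and without the 5% of cells with the most UMIs, and S100a6 did so with cells thinned to 10000 UMIs (-0.99). Histone genes of this family are near-identical copies, so their counts are uncertain.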

How the results depend on the processing

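Under the filter of 10 CPM in 2 libraries, which tests fewer genes, the called genes fell to 659 for Hyper against ENR, 512 for Hyper against -VE, 73 for -VE against ENR, and 52 and 37 for the interactions of class with Hyper against ENR and against -VE. For -VE against ENR, DESeq2 called 268 and the fit with no filter 238, and thinning left 86. Thinning left 75 interaction genes for Hyper against ENR, and DESeq2 called 53 for Hyper against -VE. The causes were not tested. Leaving out 1 library at a time gave 2778 to 3109 genes for Hyper against ENR, 2051 to 2642 for Hyper against -VE and 39 to 237 for -VE against ENR (51, 56 and 71 without ENR replicates 1, 2 and 3, 39 without -VE replicate 2 and 237 without Hyper replicate 1). The interactions ran from 102 (without ENR replicate 2) to 200 and from 48 (without -VE replicate 2) to 151.

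With the culture series as a replicate block the 3 counts were 3128, 2688 and 201, all within 1.5 times of those without it. Among named genes the block added the call of Olfm4 for Hyper against -VE (log2 -3.55, edgeR adjusted p = 0.0216) and took Ass1 (0.97) and Arhgdig (0.98) under 2-fold for -VE against ENR, and it changed no other call. The S phase level of -VE against ENR was -1.57 under the block and without ENR replicate 3, in place of 0.29, and ran from -1.57 to 1.26 over the libraries left out. Counting cells with Mki67 and Top2a after thinning, as a share of cells of at least 10000 UMIs, in place of the class as a share of kept cells turned the share difference of Hyper from ENR to -10.7 points. Atoh1 changed sign between Hyper and ENR when ENR replicate 2, Hyper replicate 1 or Hyper replicate 2 was left out, with a range of -0.593 to 0.0687 over all libraries left out. With cells thinned to 10000 UMIs it was at -1.19 (edgeR adjusted p = 0.078) in place of -0.16. The class as a share of cells of at least 10000 UMIs, an alternative chosen after seeing the data, differed by 8.00 points between Hyper and ENR, so the base alone did not turn it. Named genes kept direction and call in every alternative that tested them for 90 of 100 genes between Hyper and ENR. The same held for 25 of 34 between Hyper and -VE and 10 of 21 between -VE and ENR. Genes with fewer than 10 UMIs in a group, such as Bex4, Peg3 and Lef1 in ENR-organoids, have folds limited by counting.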

Other observations

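Of the 6 largest rises between Hyper and ENR in TA cells, ranked among genes with a group mean of at least 20 CPM, Nrk, Arxes2, Bex4 and Bex1 lie on chromosome X. So does Itm2a among those over -VE. Arxes2, Bex4 and Bex1 are neighbours there, starting at 135993824, 136138996 and 136213972, and are not separate regions. The share of X-linked genes among all genes was not counted. The shared chromosome was noticed after the values were seen, and was not tested. Hdac1 was at 106 CPM in each of the 3 Hyper libraries against 69.2, 71.7 and 69.0 in ENR- and 71.4 and 70.3 in -VE-organoids.

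Passage ran from 1 to 7 and the Hyper libraries at passages 1, 6 and 3 differed in several genes. Vim was at 74.2, 20.1 and 8.02 CPM, Olfm4 at 627, 22.01 and 40.4, and Hoxb9 at 0.240, 1.15 and 3.86. Passage and culture series cannot be told apart in these libraries.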
